A study of Mus musculus with 22 samples.

Results

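Ctdspl, Ctdsp1, Ctdsp2, Tln2 and Chpf2 are the genes whose introns or exons hold the hairpins of miR-26a, miR-26b, miR-190a and miR-671, miRNAs that a target prediction of the study listed for the circular RNA circTulp4. They were chosen by gene symbol for the hairpin they hold and not for any measured value, and all 5 were found among the 23033 genes of the deposited counts. Their mRNA was counted in hippocampus, cortex and cerebellum of wild-type (WT) and circTulp4-deficient (CD) mice with 3′ RNA-seq libraries, which count polyadenylated RNA near its 3′ end. The host mRNA is only a proxy of where a hairpin is transcribed, since no mature miRNA was measured in these libraries. WT and CD mice had C57BL/6 as their breeding background and differed in the splice acceptor of circTulp4, where CRISPR-Cas9 with a repair oligonucleotide replaced AG by TC and changed 1 further site against recutting. The study reports circTulp4 as reduced and not absent in CD brains, with the remaining circles made from the next AG downstream. A comparison of CD with WT is thus one of less circTulp4 and not of none. The CD line descends from 1 mosaic founder male, so the allele and anything linked to it come from 1 founder. No treatment is given for either group, and the age and sex of the mice used for RNA-seq are not given in the sources used here. The 22 libraries came from 4 WT and 4 CD mice and comprised 3 WT and 4 CD hippocampi, 4 WT and 4 CD cortices, and 4 WT and 3 CD cerebella.

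An intronic miRNA is cut as a hairpin from the primary transcript of its host, exported, diced and loaded into an Argonaute protein, where its seed, the bases from position 2 to 8, pairs with target RNAs. Ctdspl, Ctdsp2 and Ctdsp1 encode small C-terminal domain phosphatases, which dephosphorylate the C-terminal domain of RNA polymerase II and are recruited with REST to neuronal genes in cells that are not neurons. Each of these genes carries a copy of miR-26. Tln2 encodes talin 2, which links integrins to actin and is the talin with the more restricted, brain- and muscle-rich expression, and Chpf2 encodes a chondroitin polymerizing factor, which helps to extend the sugar chains of proteoglycans such as those of perineuronal nets.

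The mature sequences are shown because hosts with a shared seed give rise to miRNAs for the same target sites. They were taken from RefSeq (GRCm38.p6), are written 5′ to 3′ with the seed in capitals, and are grouped here by shared seed.
miR-26a-5p: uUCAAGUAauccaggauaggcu
miR-26b-5p: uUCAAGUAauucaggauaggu
miR-190a-5p: uGAUAUGUuugauauauuaggu
miR-190b-5p: uGAUAUGUuugauauuggguug
miR-671-3p: uCCGGUUCucagggcuccacc
miR-671-5p: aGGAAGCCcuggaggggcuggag
MiR-26a-5p has identical copies in the hairpins of Ctdspl and Ctdsp2, and miR-26b-5p, the copy in Ctdsp1, differs from it by C11U and C21U, counted from the 5′ end, so that all 3 phosphatase genes carry the same seed. MiR-190b-5p shares its seed with miR-190a-5p and lies at chr3:90070030-90070051 in none of the 5 genes. Its bases differ from those of miR-190a-5p only from position 16 onward.

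In RefSeq, Ctdspl spans chr9:118926536-119044119, Ctdsp2 chr10:126978717-126999975, Ctdsp1 chr1:74391609-74397285 and Chpf2 chr5:24586744-24594398 on the plus strand, and Tln2 chr9:67217085-67634045 on the minus strand. Each hairpin lies on the strand of its host gene. Mir26a-1 lies at chr9:119031796-119031885 in intron 5 of the Ctdspl transcript NM_133710, which is 3283 bases long, and Mir26a-2 lies at chr10:126995530-126995613 in intron 5 of the Ctdsp2 transcript NM_001113470. Mir26b lies at chr1:74394310-74394394 in intron 4 of the Ctdsp1 transcript NM_153088, which is 564 bases long. Mir190a lies at chr9:67236660-67236726 in intron 53 of the Tln2 transcript NM_001081242, 11222 bases long and 322977 bases downstream of the start of that transcript. Mir671 lies in no intron of the Chpf2 transcript NM_133913. Its hairpin, at chr5:24592114-24592211, is part of coding exon 4. Ctdsp2 has a further particularity, because the shorter coding transcript NM_146012 begins at the last base of the Mir26a-2 hairpin and ends within 6 bases of NM_001113470. The deposited counts of these transcripts totalled 4474 for NM_001113470 and 4473 for NM_146012, so they do not separate transcripts that run through the hairpin from those that start behind it. Gene spans and hairpins are placed by RefSeq, and transcripts and introns by GENCODE M21, all on GRCm38.

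CircTulp4 spans 1946 nucleotides at chr17:6137211-6139156 on the plus strand. The reverse complement of a seed was searched on that strand as a 7-base word, and the sites are shown with 14 bases before and 1 base behind the match, which is in capitals.
miR-26a/b-5p site: ttaccgccttaagtTACTTGAa
miR-190a/b-5p site: aaccgggaaaacaaACATATCa
miR-671-3p site: gaccttaaaactctGAACCGGa
The word TACTTGA of miR-26a/b-5p occurred once in circTulp4, at chr17:6138477-6138483. ACATATC of miR-190a/b-5p occurred once at chr17:6137283-6137289, and GAACCGG of miR-671-3p once at chr17:6137572-6137578. All 3 matches are followed by A, and GGCTTCC, the word of miR-671-5p, had 0 matches. None of the words overlaps another. Among the 3′ UTRs of 20945 genes, each taken from the transcript with the longest one, 9.68% held TACTTGA, 6.32% ACATATC, 1.48% GAACCGG and 11.9% GGCTTCC. These 3′ UTRs were of all lengths. Of those with at least 1767 bases, a length nearer to the 1946 of circTulp4, 21.9%, 14.8%, 2.97% and 24.8% held these words in the same order. Of the hosts' own 3′ UTRs, that of Ctdsp2 held 1 match to the seed of the miR-26a it carries, starting at base 1080 of its 3489 bases (ccaagtgttgctctTACTTGAt). In 3′ UTRs of at least that length, 33.1% held such a match. The 3′ UTR of Chpf2 held 2 matches to miR-671-5p (agaatttgtctgccGGCTTCCa and aagtagcggctaacGGCTTCCt), and 24.8% of 3′ UTRs at least as long held any. Ctdspl held 1 match to miR-671-5p (ttgacctcaagtggGGCTTCCt), and 33.6% of 3′ UTRs at least as long held any. Ctdsp1 and Tln2 held none of the 4 words. A match is a description of the sequence and shows neither binding nor a response.

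Before the results, the labels were checked. The Tulp4 transcript NM_054040, whose first exon lies in circTulp4, has the other exons of NM_001103181, whose first exon lies upstream. Counts of the former in excess of the latter, scaled to the library total (cpm), were 2.71 to 3.69 cpm in WT hippocampi and 0.42 to 0.57 cpm in 3 CD hippocampi, but 3.98 cpm (16 counts) in the CD hippocampus with the lowest total, 4021610 counts. That library lay with WT against its label. It is called the doubted CD hippocampus, and the main differences that rest on it are given with and without it. Ranges, medians and counts of mice that involve the hippocampus include it. In the cortex this excess was 1.45 to 6.03 cpm in WT and 0.14 to 1.30 cpm in CD, and in the cerebellum 3.12 to 13.7 cpm in WT and 0.60 to 2.62 cpm in CD. The cortex and cerebellum of the mouse with the doubted hippocampus had 0.90 and 1.55 cpm, within the CD ranges. The check rests on few counts: the lowest WT cortex had 4 and the highest CD cortex 8. Why the excess differed between genotypes was not tested, and the study reports linear Tulp4 as unchanged in CD brains. Regional markers fitted the region labels, with 6 of 6 hippocampal, 5 of 6 cortical and 6 of 6 cerebellar markers highest in their own region. Choroid plexus markers (Ttr, Folr1, Kl and Kcnj13) ranged from 127 to 8254 cpm in hippocampi, and 3 of the 7, from 1 WT mouse and 2 CD mice, had 1212 cpm or more, the other 4 at most 549 cpm. Cortices and cerebella had at most 118.4 and 98.8 cpm of them. Library totals, with 1 transcript per gene, were 2757684 to 8847478 counts. At that depth a library held 20 to 128 counts of Ctdspl, 58 to 333 of Ctdsp2, 21 to 81 of Ctdsp1, 51 to 178 of Tln2 and 21 to 87 of Chpf2, so that counting error alone gave a coefficient of variation of 6.30% to 18.4% for these genes within a group. All further levels are in cpm scaled with TMM, the trimmed mean normalization of edgeR, and are not compared between genes.

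Ctdspl, the host of Mir26a-1, was the gene with the clearest regional difference. Its level ran from 9.27 to 14.5 cpm in the 7 hippocampi (median, 11.2), from 11.996 to 16.0 cpm in the 8 cortices (median, 13.3) and from 3.67 to 7.26 cpm in the 7 cerebella (median, 5.14). Every cerebellum lay below every hippocampus and every cortex, whereas hippocampus and cortex overlapped. In edgeR's quasi-likelihood test over the 22 libraries, Ctdspl was 2.73-fold lower in the cerebellum than in the cortex (log2 fold change -1.45, SE 0.15, FDR = 6.12e-09). Against the hippocampus it was 2.34-fold lower (log2 fold change -1.23, SE 0.15, edgeR FDR = 1.63e-07). FDR is the Benjamini-Hochberg adjusted p over the 11133 genes tested. Such differences were common in these tissues: the thresholds of the study (FDR below 0.01 with at least a 2-fold change in either direction) were passed by 22.6% of genes between cerebellum and cortex and by 22.8% between cerebellum and hippocampus. Ctdspl was the only host gene past those thresholds. Groups that did not overlap at all were found for 32.9% and 35.9% of genes, and 17.5% and 19.2% lay wholly lower in the cerebellum. Wholly higher groups made up 15.5% and 16.7%. The cerebellum was lower than the cortex of the same mouse in 7 of 7 mice, with ratios from 0.27 to 0.56, and lower than the hippocampus in 6 of 6 mice. The cortex was higher than the hippocampus in 6 of 7 mice. Between cortex and hippocampus, Ctdspl did not pass the test (log2 fold change 0.22, 95% CI -0.06 to 0.50, edgeR FDR = 0.218). In bulk tissue, fewer cells that express a gene and less RNA per cell cannot be told apart, here and for all genes that follow.

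**Figure D1:**
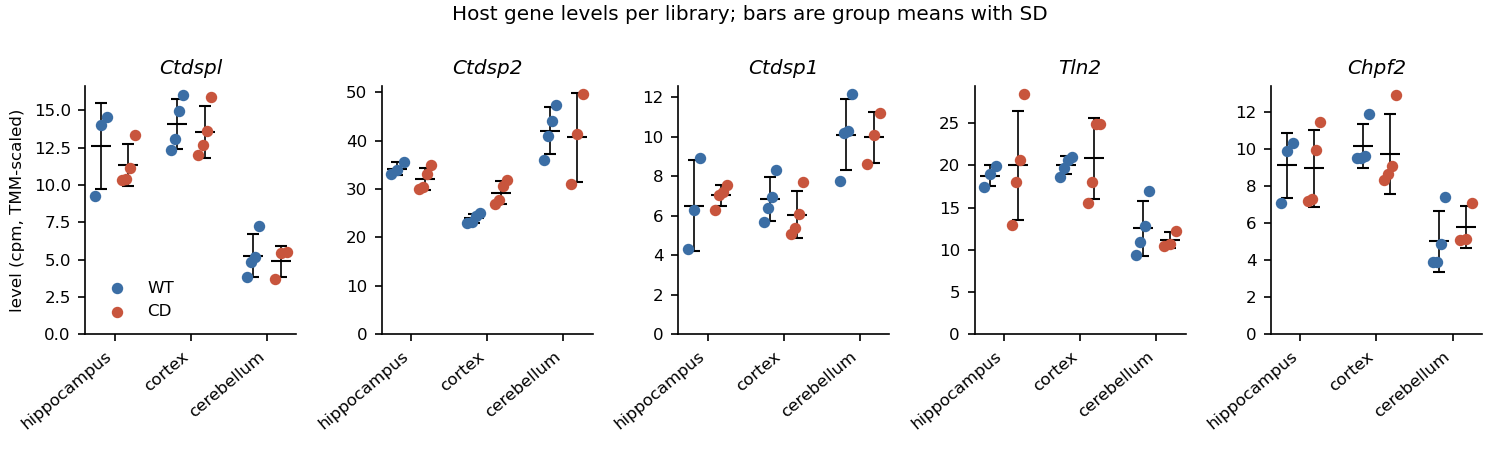
Level of each host gene (cpm, TMM-scaled, linear axis from 0) in the 22 libraries by region, with WT in blue and CD in red; bars are the mean ± SD of each group of 3 or 4 libraries. Ctdspl, Tln2 and Chpf2 lie lower in the cerebellum, Ctdsp2 and Ctdsp1 higher, and WT and CD points overlap except for Ctdsp2 in the cortex.

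Ctdsp2, the host of the other Mir26a copy, ran the opposite way. Its level was 30.0 to 35.7 cpm in hippocampi (median, 33.0), 23.0 to 31.8 cpm in cortices (median, 25.9) and 31.0 to 49.5 cpm in cerebella (median, 41.4). The cortices were lowest and the cerebella highest, and the 3 ranges overlapped. It was 1.56-fold higher in the cerebellum than in the cortex (log2 fold change 0.64, SE 0.09, edgeR FDR = 1.09e-06) and 1.25-fold higher than in the hippocampus (0.32, SE 0.09, FDR = 0.00393). Ctdsp2 was also the only host gene that differed between the forebrain regions, where it was lower in the cortex than in the hippocampus (log2 fold change -0.32, SE 0.09, edgeR FDR = 0.00756). Between cortex and hippocampus, 35.5% of all genes were called, 18.0% higher and 17.5% lower, so 1 call among 5 host genes was no more than the background. The study thresholds were passed there by 8.42% of genes and by 0 host genes. No host gene had groups that did not overlap between these regions, where 14.0% of all genes did, 7.56% wholly higher and 6.44% wholly lower in the cortex. In the same mouse, the cerebellum exceeded the cortex in 7 of 7 mice and the hippocampus in 5 of 6, and the cortex was lower than the hippocampus in 5 of 7 mice.

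Ctdsp1, the host of Mir26b, had 4.33 to 8.89 cpm in hippocampi (median, 7.05), 5.07 to 8.32 cpm in cortices (median, 6.25) and 7.76 to 12.2 cpm in cerebella (median, 10.2). Cerebella lay highest, with some overlap with both other regions. The gene was 1.58-fold higher in the cerebellum than in the cortex (log2 fold change 0.66, SE 0.15, edgeR FDR = 0.000583) and 1.48-fold higher than in the hippocampus (0.56, SE 0.15, FDR = 0.00281). Cortex and hippocampus differed by -0.10 on the log2 scale (95% CI -0.42 to 0.23), which did not pass the test (edgeR FDR = 0.679). The cerebellum exceeded the cortex in 6 of 7 mice and the hippocampus in 5 of 6.

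The hosts of the same miRNA family thus differed between regions in opposite directions, with Ctdspl lower and Ctdsp2 and Ctdsp1 higher in the cerebellum. The ratio of Ctdspl to Ctdsp2 counts within a library needs no scaling between libraries. It was 0.281 to 0.414 in hippocampi (median, 0.373), 0.415 to 0.645 in cortices (median, 0.506) and 0.0741 to 0.202 in cerebella (median, 0.117). All cerebella lay below the other libraries, and the highest hippocampus lay just below the lowest cortex. The ratio of Ctdspl to Ctdsp1 counts had medians of 1.58, 2.19 and 0.491 in the same order, again without overlap between cerebellum (at most 0.935) and the other regions (at least 1.38). The ratio of Ctdsp1 to Ctdsp2 counts, with medians of 0.202, 0.245 and 0.234, overlapped in all regions. Counts of different genes depend on their 3′ ends, so a ratio tells which libraries are higher or lower and not which host is transcribed more.

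**Figure D2:**
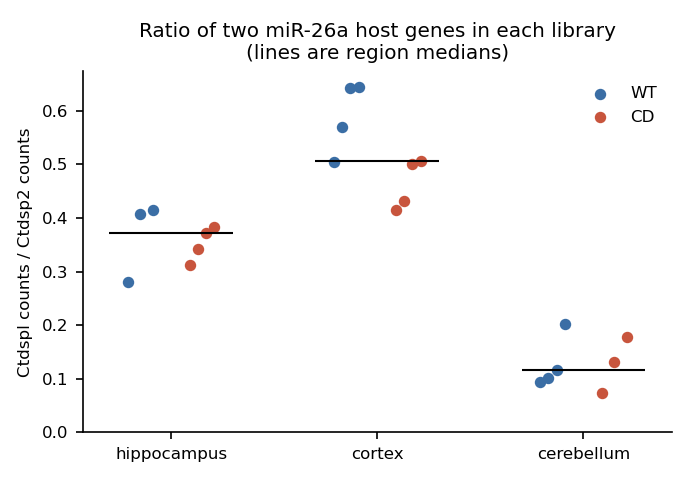
Ratio of Ctdspl to Ctdsp2 counts in each library (linear axis from 0) by region, WT in blue and CD in red, with the region median as a line. The 7 cerebella lie between 0.0741 and 0.202, below the hippocampi (0.281 to 0.414) and the cortices (0.415 to 0.645).

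Tln2, whose intron holds Mir190a, had 12.9 to 28.5 cpm in hippocampi (median, 19.0), 15.5 to 24.9 cpm in cortices (median, 20.2) and 9.43 to 16.9 cpm in cerebella (median, 11.0). The cerebella were lowest, and the highest of them lay above the lowest hippocampus and the lowest cortex. Tln2 was 1.72-fold lower in the cerebellum than in the cortex (log2 fold change -0.78, SE 0.15, edgeR FDR = 8.90e-05) and 1.63-fold lower than in the hippocampus (-0.70, SE 0.16, FDR = 0.000384). Cortex and hippocampus differed by 0.08 (log2; 95% CI -0.22 to 0.38, edgeR FDR = 0.714), and by 0.17 without the doubted CD hippocampus (edgeR FDR = 0.362). The cerebellum was the lower region in 7 of 7 and 6 of 6 mice. The highest Tln2 level, 28.5 cpm, was that of the doubted CD hippocampus, and without it the difference between cerebellum and hippocampus was -0.61 (SE 0.14, edgeR FDR = 0.000721). The table lists 8 Tln2 transcripts, 3 of them distinct in counts. The predicted transcript XM_006511441 had 49.1% to 90.0% of the counts of NM_001081242, with medians of 75.4% in the cerebellum, 79.2% in the cortex and 74.7% in the hippocampus.

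Chpf2, whose coding exon holds Mir671, had 7.10 to 11.4 cpm in hippocampi (median, 9.92), 8.33 to 12.9 cpm in cortices (median, 9.53) and 3.88 to 7.41 cpm in cerebella (median, 5.10). Every cerebellum lay below every cortex, and 1 WT cerebellum, at 7.41 cpm, lay above 3 hippocampi. The gene was 1.82-fold lower in the cerebellum than in the cortex (log2 fold change -0.87, SE 0.17, edgeR FDR = 9.72e-05) and 1.67-fold lower than in the hippocampus (-0.74, SE 0.17, FDR = 0.000636). Cortex and hippocampus differed by 0.12 (log2; 95% CI -0.21 to 0.45, edgeR FDR = 0.598). The cerebellum was lower than the cortex in 7 of 7 mice and lower than the hippocampus in 5 of 6. The hairpin itself was hardly counted: the Mir671 row of the table held 8 counts in 7 libraries, with at most 2 in a library, and the Mir190a row held 1 count.

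All 5 host genes were thus called between cerebellum and cortex and between cerebellum and hippocampus, 2 higher and 3 lower in each, at an edgeR FDR below 0.05. Those contrasts called 61.9% (31.2% higher, 30.8% lower) and 61.4% (30.7% higher, 30.7% lower) of all genes, and both share the cerebellar libraries. The absolute differences were not extreme for these tissues. Between cerebellum and cortex, 85.3% of genes changed less than Ctdspl, 73.1% less than Chpf2, 70.0% less than Tln2, 64.5% less than Ctdsp1 and 63.7% less than Ctdsp2. The median absolute difference of all genes was 0.43 on the log2 scale.

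**Figure D3:**
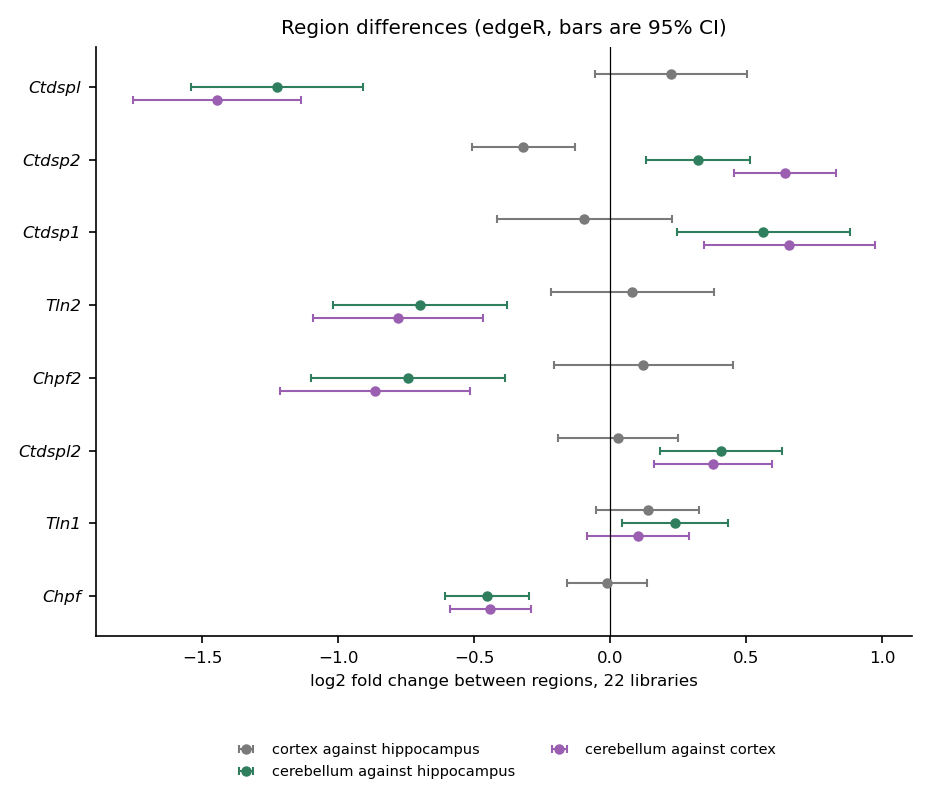
Log2 fold change between regions with its 95% CI from edgeR's quasi-likelihood fit over 22 libraries, for the 5 host genes and their family members Ctdspl2, Tln1 and Chpf. The 2 contrasts with the cerebellum exclude 0 for all 5 host genes and share the cerebellar libraries, whereas cortex against hippocampus excludes 0 only for Ctdsp2.

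Family members that hold none of these hairpins were compared in the same fit. Ctdspl2, the phosphatase nearest to Ctdspl by name, had 18.5 to 27.4 cpm in cerebella against 13.9 to 19.7 cpm in cortices, and was higher in the cerebellum by 0.38 (log2; SE 0.11, edgeR FDR = 0.00323), the direction of Ctdsp2 and Ctdsp1 and not of Ctdspl. Tln1, the broadly expressed talin, differed by 0.10 (SE 0.09, edgeR FDR = 0.346) between cerebellum and cortex and was higher in the cerebellum than in the hippocampus by 0.24 (SE 0.09, edgeR FDR = 0.0313), where Tln2 was lower. Chpf, the other chondroitin polymerizing factor, was lower in the cerebellum than in the cortex (log2 fold change -0.44, SE 0.07, edgeR FDR = 1.07e-05), the direction of Chpf2.

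The pathways of the host genes were described by lists, with higher and lower genes counted at an edgeR FDR below 0.05. At that threshold 31.2% of all genes were higher and 30.8% lower in the cerebellum than in the cortex, so the counts describe the lists only. Of 12 genes for small C-terminal domain phosphatases and other factors of the RNA polymerase II C-terminal domain, 11 passed the filter on low counts, and between cerebellum and cortex 5 were higher and 2 lower (median log2 fold change 0.21, 0.02 for all genes). Besides the host genes, Rprd1a, a binding partner of the C-terminal domain, was higher by 1.18 (SE 0.18), Rprd2 by 0.50, and the phosphatase Ssu72 was lower (-0.45). Of 10 tested genes of 14 for the REST and CoREST repressor complex, 3 were higher and 2 lower in the cerebellum than in the cortex (median 0.02). Rcor2, a CoREST subunit, was lower (log2 fold change -1.51, SE 0.22, edgeR FDR = 1.45e-06), with medians of 6.02, 5.49 and 2.04 cpm in hippocampus, cortex and cerebellum. The histone methyltransferases Ehmt2 and Ehmt1 differed by -0.86 and 0.63. Rest itself did not pass the filter.

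Of 18 tested genes of 19 for talins and integrin adhesion, 6 were higher and 5 lower in the cerebellum than in the cortex (median 0.14). Kank2, which binds talin, had medians of 14.5 cpm in the cortex and 150 cpm in the cerebellum and was higher by 3.51 (log2; SE 0.14, edgeR FDR = 8.83e-17). Integrin α7 (Itga7) was higher by 2.56 and paxillin (Pxn) by 2.34, while the focal adhesion kinase Ptk2 (-1.14) and integrin αv (Itgav, -1.13) were lower. Tln2 thus lay among the lower members of a list that moved in both directions. Higher and lower genes made up 31.2% and 30.8% of all genes in this contrast.

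Of 13 tested genes of 21 for chondroitin sulfate synthesis, 1 was higher and 6 lower in the cerebellum than in the cortex (median -0.19). The lower ones included Csgalnact1, which starts the chain (-1.49, SE 0.27), the xylose kinase Fam20b (-0.83) and Chpf2, while the uronyl sulfotransferase Ust was higher (2.23, SE 0.20). Against the hippocampus, 8 were lower and 1 higher (median -0.35). For all genes the shares were 30.7% lower and 30.7% higher, and 30.8% lower and 31.2% higher in the cerebellum than in the cortex. Of 7 tested proteoglycan core proteins of 9, 4 were lower and 1 higher than in the cortex (median -0.78). Neurocan (Ncan) was lower (log2 fold change -4.06, SE 0.14, edgeR FDR = 4.74e-18), with 43.3 cpm in the cortex and 2.43 cpm in the cerebellum, Cspg5 was lower (-1.81), and Ptprz1 was higher by 1.03.

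Of 13 tested genes of 17 for miRNA biogenesis and silencing, 4 were higher and 1 lower in the cerebellum than in the cortex (median 0.32). Tnrc6a, a partner of Argonaute, was higher by 1.03 (log2; SE 0.07, edgeR FDR = 2.63e-12), Prkra, a partner of Dicer, by 0.85 and Dicer1 by 0.36, and the exportin of precursor miRNAs, Xpo5, was lower (-0.59). Drosha, which cuts the hairpin from the primary transcript, differed by -0.13 (edgeR FDR = 0.216). Between cortex and hippocampus 3 of the 13 were lower and 0 higher, Ago2, Tnrc6c and Ago1. For all genes, 17.5% were lower and 18.0% higher in that contrast, and 31.2% were higher and 30.8% lower between cerebellum and cortex.

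**Figure D4:**
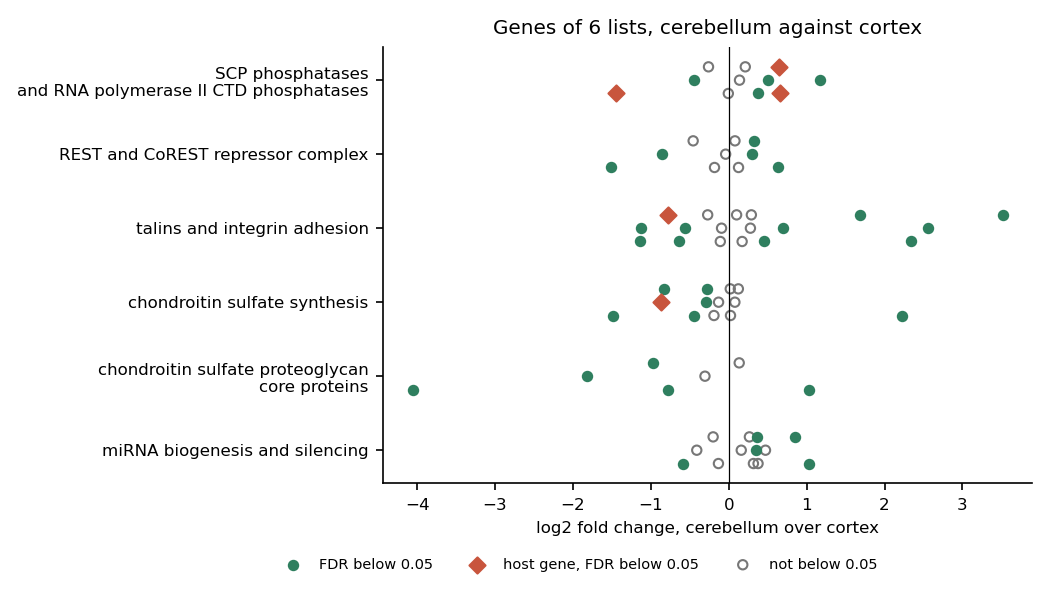
Log2 fold change of cerebellum over cortex for the tested genes of 6 lists, 1 symbol per gene; filled green symbols have an edgeR FDR below 0.05, open symbols do not, and red diamonds are the host genes. Each list has genes on both sides of 0, and the chondroitin sulfate genes past the threshold lie mostly below it.

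Cell type markers moved between the same regions. Single markers are counted at an edgeR FDR below 0.05, which 61.9% of all genes passed between cerebellum and cortex. Between cerebellum and hippocampus 61.4% passed it, and between cortex and hippocampus 35.5%. Oligodendrocyte markers (6 of 6 tested) summed to 3322 to 5275 cpm in hippocampi, 1215 to 2618 cpm in cortices and 1922 to 2775 cpm in cerebella. Of these, 6 were lower in the cortex and 5 in the cerebellum than in the hippocampus, and 1 was higher in the cerebellum than in the cortex. Microglial markers summed to 224 to 244.1 cpm, 192 to 247 cpm and 64.3 to 81.8 cpm, and all 6 were lower in the cerebellum than in either other region. Astrocyte markers summed to 2992 to 3305 cpm, 2730 to 3397 cpm and 6047 to 7335 cpm, and neuronal markers to 5958 to 6874 cpm, 7333 to 8564 cpm and 6847 to 8522 cpm. Single markers of both lists (6 each) moved in both directions. Of the astrocyte markers, 4 were higher and 2 lower in the cerebellum than in the hippocampus, 3 higher and 0 lower than in the cortex, and 2 higher and 4 lower in the cortex than in the hippocampus. For the neuronal markers these counts were 5 and 1, 1 and 2, and 4 and 0. Markers of oligodendrocyte precursors summed to 48.4 to 85.7 cpm in hippocampi, 32.5 to 71.9 cpm in cortices and 16.9 to 34.7 cpm in cerebella, and those of endothelial and mural cells to 38.3 to 60.1 cpm over all libraries. Both precursor markers tested were lower in the cerebellum than in either other region. Of 3 endothelial and mural markers tested, 1 was higher in the cortex than in the hippocampus and 1 lower in the cerebellum than in the cortex. No marker of these lists was at 0 in all libraries of a region. The part of these cell types in the differences between regions was not tested. Without the 3 hippocampi with 1212 cpm or more of choroid plexus markers, the 5 host genes were still called between cerebellum and hippocampus, from -1.15 (Ctdspl) to 0.72 (Ctdsp1) on the log2 scale, and Ctdsp2 between cortex and hippocampus (-0.31, edgeR FDR = 0.0453). Without the doubted CD hippocampus, the same calls held, with Ctdsp2 at -0.32 between cortex and hippocampus (edgeR FDR = 0.0113).

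Over the 22 libraries, the log2 levels of the 5 genes fell into opposite patterns. As a description, Pearson's r was 0.71 between Ctdspl and Tln2, 0.72 between Ctdspl and Chpf2 and 0.76 between Tln2 and Chpf2, but -0.78 between Ctdspl and Ctdsp2 and -0.77 between Ctdspl and Ctdsp1. Ctdsp1 and Ctdsp2 had 0.45. The libraries share mice and regions, and after each group mean was subtracted the 10 pairs had r between -0.29 and 0.50, the highest for Ctdsp1 and Chpf2. The genes most like Ctdspl over all 22 libraries were the muscarinic receptor Chrm3 (r = 0.955), Rgl1 (0.954) and the dorsal forebrain transcription factor Emx1 (0.953), which had medians of 208 cpm in the hippocampus, 513 cpm in the cortex and 4.44 cpm in the cerebellum. Those most like Ctdsp2 were Fam117a (r = 0.893), Zcchc24 (0.891) and Knop1 (0.882), and those most like Ctdsp1 were Sulf1 (0.859), Galnt15 (0.849) and Polb (0.844). Genes like Tln2 included Inpp5d (r = 0.872) and Sstr1 (0.870), and Chpf2 was most like Cbarp (0.895), Clptm1l (0.894) and Mapk8 (0.879).

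The second comparison asked whether the host genes differed between WT and CD mice. None did at an edgeR FDR below 0.05: 0 of 5 were called in the hippocampus, 0 of 5 in the cortex and 0 of 5 in the cerebellum, where 0.0%, 0.0101% and 0.0% of all genes were called. At an unadjusted edgeR p below 0.05, 420 of 9960 genes tested were found in the hippocampus, 329 of 9924 in the cortex and 461 of 10137 in the cerebellum. Among the host genes, only Ctdsp2 in the cortex was found. Leaving genes with low counts in the table, or using DESeq2 or the likelihood ratio test, changed the number of genes called but called no host gene.

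Ctdsp2 in the cortex was the largest of these differences. Its level was 23.0, 23.2, 24.5 and 24.9 cpm in the 4 WT cortices and 26.9, 27.7, 30.6 and 31.8 cpm in the 4 CD cortices. The groups did not overlap, as was the case for 2.55% of the genes tested in the cortex, with CD higher for 1.39% and lower for 1.16%. The WT values lay closer together than counting error alone gives, with a coefficient of variation of 4.01% against 9.60%. In CD these were 8.01% and 7.24%. The lowest WT cortex rested on 58 counts. CD was 1.22-fold higher (log2 fold change 0.28, SE 0.13, 95% CI 0.01 to 0.56), with an unadjusted p of 0.0436 and an edgeR FDR of 0.9997. In the hippocampus, Ctdsp2 was 33.0, 33.9 and 35.7 cpm in WT and 30.0, 30.4, 33.0 and 35.0 cpm in CD, and in the cerebellum 36.0, 41.0, 44.0 and 47.4 cpm in WT and 31.0, 41.4 and 49.5 cpm in CD. Both pairs of groups overlapped, as did those of all other host genes in these regions. Groups that did not overlap made up 5.42% of genes in the hippocampus (2.67% higher and 2.75% lower in CD) and 5.35% in the cerebellum (2.46% higher and 2.89% lower). The genotype difference in the cortex exceeded that in the hippocampus by 0.38 on the log2 scale (SE 0.18, unadjusted p = 0.0474), which did not pass the adjustment (edgeR FDR = 0.9999). Without the doubted CD hippocampus it was 0.39 (edgeR, unadjusted p = 0.0519), and Ctdsp2 in the hippocampus differed by -0.09 with and -0.10 without that library.

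Ctdspl was 9.27, 14.0 and 14.5 cpm in WT hippocampi and 10.3, 10.4, 11.2 and 13.4 cpm in CD hippocampi (log2 fold change -0.14, 95% CI -0.57 to 0.30, and -0.10 without the doubted CD hippocampus). In the cortex it was 12.4, 13.1, 15.0 and 16.0 cpm in WT and 11.996, 12.7, 13.6 and 15.9 cpm in CD (-0.07, 95% CI -0.43 to 0.29), and in the cerebellum 3.82, 4.81, 5.14 and 7.26 cpm in WT and 3.67, 5.46 and 5.51 cpm in CD (-0.10, 95% CI -0.72 to 0.52). WT and CD overlapped in each region. Ctdsp1 was 4.33, 6.30 and 8.89 cpm in WT hippocampi and 6.30, 7.05, 7.21 and 7.52 cpm in CD hippocampi (log2 fold change 0.12, 95% CI -0.43 to 0.68, and 0.17 without that library). Its WT values spanned the CD values. In the cortex and cerebellum, Ctdsp1 differed by -0.16 and -0.02.

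Tln2 was 17.5, 19.0 and 19.9 cpm in WT hippocampi and 12.9, 18.1, 20.6 and 28.5 cpm in CD hippocampi, the last in the doubted CD hippocampus. The CD values spanned the WT values. The log2 fold change was 0.08 (95% CI -0.41 to 0.56), and without that library it was -0.11 (SE 0.18). In the cortex, Tln2 was 18.6, 19.7, 20.6 and 21.0 cpm in WT and 15.5, 18.0, 24.9 and 24.9 cpm in CD, a difference of 0.05, and in the cerebellum it was 9.43, 11.0, 12.9 and 16.9 cpm in WT and 10.5, 10.7 and 12.2 cpm in CD, a difference of -0.18. Chpf2 was 7.10, 9.92 and 10.3 cpm in WT hippocampi and 7.20, 7.30, 9.96 and 11.4 cpm in CD hippocampi, with a log2 fold change of -0.01 and of 0.07 without that library. Again the groups overlapped. In the cortex, Chpf2 was 9.51, 9.55, 9.61 and 11.9 cpm in WT and 8.33, 8.65, 9.07 and 12.9 cpm in CD (log2 fold change -0.08), and in the cerebellum 3.88, 3.88, 4.86 and 7.41 cpm in WT and 5.10, 5.14 and 7.08 cpm in CD (0.21, 95% CI -0.41 to 0.84).

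**Figure D5:**
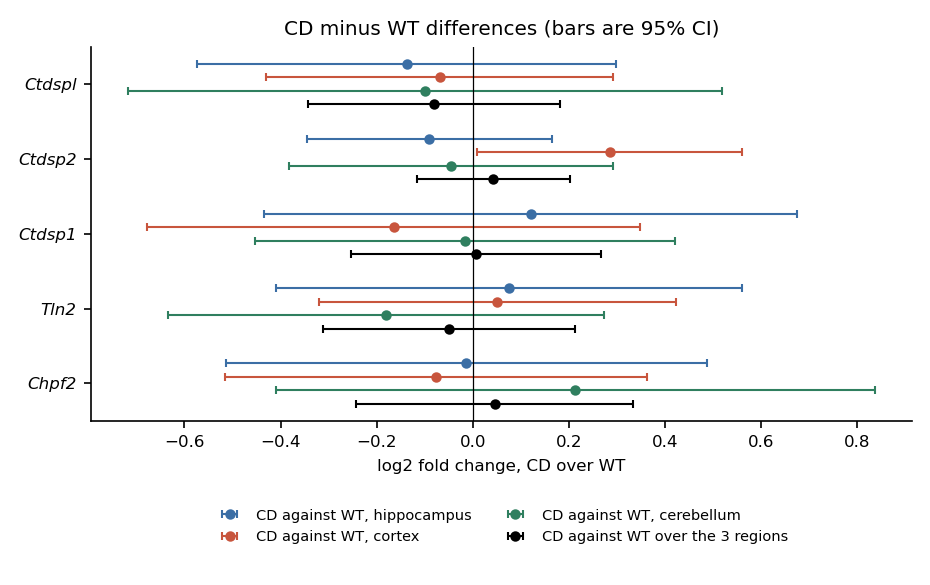
Log2 fold change of CD over WT with its 95% CI for the 5 host genes in each region (edgeR) and over the 3 regions together (limma voom with mouse as a random block). The intervals include 0 in each case except Ctdsp2 in the cortex, whose interval starts at 0.01.

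Over the 3 regions together, limma voom with the mouse as a random block gave log2 fold changes from -0.08 (Ctdspl) to 0.05 (Chpf2), with an FDR of 0.9996 for each host gene and 0.0% of all genes called. The 95% CIs reached at most 0.34 in size. Without the doubted CD hippocampus these values ran from -0.09 (Tln2) to 0.07 (Chpf2). Within regions the intervals were wider and reached 0.68, 0.68 and 0.84 in hippocampus, cortex and cerebellum. Neuronal markers summed to 6847 to 8103 cpm in WT and 8167 to 8522 cpm in CD cerebella, without overlap. Microglial markers did not overlap in the hippocampus either, with 239.3 to 244.1 cpm in WT and 224.4 to 239.0 cpm in CD. Both sums were picked for not overlapping, out of the sums of all cell type lists in 3 regions. Among single genes, groups did not overlap for 5.35% in the cerebellum and 5.42% in the hippocampus, so these sums show no difference in cell types between genotypes. At an edgeR FDR below 0.05, 0 of 6 neuronal markers in the cerebellum and 0 of 5 microglial markers in the hippocampus were called between genotypes. The part of these markers in the values of the host genes was not tested. The genotype by region interaction called 0 of 5 host genes and 0.0% of all genes in each of the 3 edgeR contrasts. At an unadjusted p below 0.05, 373 (cortex against hippocampus), 482 (cerebellum against hippocampus) and 513 (cerebellum against cortex) genes were found for the interaction, and 398 over the 3 regions together. Each of these tests covered 11133 genes. No gene of the 6 pathway lists was called between WT and CD in any region, and among the family members, Ctdspl2 differed by -0.05, -0.03 and -0.20, Tln1 by -0.13, -0.08 and 0.06 and Chpf by -0.07, 0.06 and -0.01 in hippocampus, cortex and cerebellum on the log2 scale.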

How the data were processed

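RNA of 22 tissue samples was sequenced from CelSeq2 3′ libraries with 6-base molecular identifiers. The authors aligned reads to mm10 with STAR, used the End Sequence Analysis Toolkit to count them per RefSeq transcript, and deposited the raw counts, not normalized. Whether identifiers were collapsed is not given in the sources used here, so counting errors cover counting alone. Of 85964 transcripts, 69280 (80.6%, with 81.4% of counts) were matched by accession without version to 23033 genes, and the transcript with the highest total stood for its gene. Genes that reached 5 cpm in 2 or more of the libraries fitted were kept, scaled by TMM and tested with edgeR 4.0.16 (glmQLFit, glmQLFTest, R 4.3.3), as the study used edgeR with this filter; its test within edgeR is not given. Genotypes were compared within each region, regions and interactions over 22 libraries with 6 group means, and genotypes over all regions with limma 3.58.1. Log2 cpm used a prior count of 2. Alternatives were the likelihood ratio test, RLE scaling, DESeq2 1.42.0, no filter, summed transcripts, the filter over all libraries, the mouse as a block and leaving out each library; leaving out the 3 hippocampi with high choroid plexus counts was added after seeing the data. Tables were made with Python 3.11, and the tests were checked on simulated data. The members and lists were chosen with earlier results of these data known. Genes named are the 5 members, Ctdspl2, Tln1, Chpf, genes of the lists with the largest called change per region contrast, the 3 genes most like each member (1 of those for Tln2 is not reported here), and further list genes chosen after their values were seen.

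Mouse numbers in the labels pair libraries of different regions, since they mark the same animal. Deviations from group means of the same mouse had a mean correlation of 0.083 between cortex and hippocampus (7 mice), 0.047 between cerebellum and hippocampus (6 mice) and -0.0037 between cerebellum and cortex (7 mice), and limma's mouse correlation was 0.029. The study gives 1 library fewer per group than was found, and all were used. Libraries of a group differed by 6.20 to 19.1 times counting variance (chi-square per degree of freedom), more than counting error gives between copies of 1 library. The common biological coefficient of variation was 15.5%, and that of the host genes was 10.8% (Ctdsp2) to 17.8% (Tln2). Whether the counts used strand is not given in the sources used here.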

Additional observations from a re-analysis of the deposited data

Results flagged for a closer look

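Chpf2 had 1 cortex apart from the others in each genotype. In WT, this cortex had 11.9 cpm where the other 3 WT cortices had 9.51 to 9.61 cpm, and in CD it had 12.9 cpm where the other 3 CD cortices had 8.33 to 9.07 cpm. The excess of counts of the Tulp4 transcript that starts in circTulp4 was 3.98 cpm in the doubted CD hippocampus, where the other 3 CD hippocampi had 0.42 to 0.57 cpm. That hippocampus and the CD cortex with 12.9 cpm of Chpf2 came from the same mouse. Each of these gaps was larger than Dixon's test allows at the 95% level. Of the 24 groups of 4 libraries examined in this way, chance would give about 1.2 such values. No cause was tested.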

How the results depend on the processing

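The region calls of the host genes held under every alternative run, and none called a host gene between genotypes. Directions changed only for differences that had not passed the test. Under other settings, 2 region values of host genes reversed and 103 did not, and 6 genotype values reversed and 215 did not. With 1 library left out, 2 region values reversed and 328 did not, and 57 genotype values reversed and 493 did not; the cause was not tested. Without the hippocampi with high choroid plexus counts, cortex against hippocampus became 0.065 (Ctdsp1) and -0.025 (Tln2), and CD against WT in the hippocampus 0.12 (Chpf2), with 0.34 (Ctdsp1) and 0.30 (Tln2) against 0.12 and 0.08, none of them called. Without a filter, the cortex-hippocampus interaction with genotype became 0.0045 (Tln2), and with edgeR Ctdsp1 over the 3 regions became -0.019. Mice gave several regions, and with the mouse as a replicate block the interactions became -0.043 (Ctdspl) and 0.0097 (Tln2) for cortex against hippocampus and -0.089 (Ctdspl) for cerebellum against hippocampus; the block called 3818, 6676 and 6806 genes between regions, against 3952, 6839 and 6893, and 0 in each interaction, and changed no call of a host gene.

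With 1 library left out, CD against WT ranged in the hippocampus from -0.33 to -0.023 (Ctdspl), -0.14 to -0.057 (Ctdsp2), -0.091 to 0.39 (Ctdsp1), -0.11 to 0.24 (Tln2) and -0.16 to 0.096 (Chpf2). In the cortex it ranged from -0.16 to 0.0056 (Ctdspl), 0.24 to 0.32 (Ctdsp2), -0.29 to -0.077 (Ctdsp1), -0.045 to 0.17 (Tln2) and -0.23 to 0.016 (Chpf2), and in the cerebellum from -0.22 to 0.093 (Ctdspl), -0.20 to 0.11 (Ctdsp2), -0.13 to 0.085 (Ctdsp1), -0.29 to 0.00067 (Tln2) and 0.023 to 0.47 (Chpf2). Over the 3 regions it ranged from -0.0046 to 0.097 (Ctdsp2), -0.065 to 0.077 (Ctdsp1), -0.088 to 0.013 (Tln2) and -0.020 to 0.12 (Chpf2). Cortex against hippocampus ranged from -0.20 to 0.039 (Ctdsp1) and -0.0013 to 0.17 (Tln2). The interactions ranged from -0.040 to 0.27 (Ctdspl), -0.18 to 0.17 (Tln2) and -0.21 to 0.089 (Chpf2) for cortex against hippocampus, -0.085 to 0.23 (Ctdspl), -0.12 to 0.20 (Ctdsp2) and -0.41 to 0.071 (Ctdsp1) for cerebellum against hippocampus, and -0.16 to 0.16 (Ctdspl) for cerebellum against cortex.

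The numbers of genes called between genotypes rested on few genes. With the likelihood ratio test, 5 were called in the hippocampus and 2 in the cortex, with DESeq2 5 in the hippocampus, without a filter 19, 5 and 44 in hippocampus, cortex and cerebellum, and with transcripts summed 0 in the cortex, against 0, 1 and 0. With 1 library left out, 0 to 1 were called in the cortex and 0 to 2 in the cerebellum. Interactions called 2, 5 and 1 genes (cortex against hippocampus, cerebellum against hippocampus, cerebellum against cortex) with the likelihood ratio test, 3 and 1 for the latter pair with DESeq2, 9, 8 and 9 without a filter, and 0 to 2 and 0 to 1 for the latter pair with 1 library left out. Without a filter 1471 genes passed the study thresholds between cortex and hippocampus, against 937. For the host genes, counting error gave a coefficient of variation of 6.30% to 18.4%, beside a biological one of 10.8% to 17.8% in edgeR, with 3 or 4 libraries per group.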
